A study of Mus musculus with 3 samples.

Results

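The 5 genes described here, Prm1, Prm2, Prm3, Tnp1 and Tnp2, are the mouse protamine genes and the 2 transition protein genes, and they were taken by symbol from the 31053 genes counted. They were followed through the spermatids, 3375 cells from WT mice, 1316 from KO and 486 from KI, among 11489 cells kept. The cells were testicular cells of C57BL/6 male mice, 8 weeks old by the labels and of a wider adult range by the study's methods, and 1 library was made for each of 3 genotypes. WT mice were wild type, KO mice lacked GRTH (Ddx25), a testis RNA helicase needed for spermatids to mature, and KI mice carried a human GRTH gene with a missense mutation that takes away the phosphorylated form of the protein. The labels give 1 mouse per library and the study's methods pooled testes, so animals cannot be told apart within a library, and no difference between genotypes has a replicate. The question for these genes was how their transcripts build up in single spermatids and whether that course differed in KO and KI.

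In the haploid cells of the testis, the round spermatids (RS) and elongating spermatids (ES) that follow the spermatocytes (SP), histones are first replaced on the DNA by transition proteins, and these give way to protamines, small arginine-rich proteins that pack the sperm nucleus tightly. Tnp1 and Tnp2 encode the transition proteins, and Prm1 and Prm2 encode the protamines. Prm3 lies in the same gene cluster but encodes an acidic protein of the spermatid cytoplasm. The messages are made in round spermatids, held in silent particles and translated later in elongating spermatids, so a transcript count is no measure of the protein.

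Prm1, Prm2, Prm3 and Tnp2 lie next to each other on chromosome 16, all on the minus strand, within 17.9 kb of GRCm38 (chr16:10787936-10805839), a span that runs to the start of the longest GENCODE transcript of Prm1, 9016 bases before the RefSeq start used below, whereas Tnp1 lies on chromosome 1 (chr1:73015074-73015909), also on the minus strand. The 120 bases before each RefSeq transcription start (GRCm38.p6) are shown because all 5 genes are followed in the same cells, and all 5 members were matched in the promoter table. Capitals mark matches to TGANNTCA, a loose form of the palindrome bound by CREM, and to TATAA, each searched on both strands, with no overlap between the 2 motifs.
Prm1: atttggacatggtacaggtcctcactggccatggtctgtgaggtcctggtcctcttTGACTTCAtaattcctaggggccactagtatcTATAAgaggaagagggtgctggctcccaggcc
Prm2: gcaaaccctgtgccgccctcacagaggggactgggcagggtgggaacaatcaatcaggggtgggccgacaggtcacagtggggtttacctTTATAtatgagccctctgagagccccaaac
Prm3: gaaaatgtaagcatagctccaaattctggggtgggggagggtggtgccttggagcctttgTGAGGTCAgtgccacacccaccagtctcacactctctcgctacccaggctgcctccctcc
Tnp1: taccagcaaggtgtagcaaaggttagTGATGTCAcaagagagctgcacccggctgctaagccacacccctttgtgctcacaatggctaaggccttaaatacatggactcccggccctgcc
Tnp2: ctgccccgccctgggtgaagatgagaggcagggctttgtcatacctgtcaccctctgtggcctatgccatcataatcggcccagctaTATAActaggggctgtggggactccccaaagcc

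The exact palindrome TGACGTCA was in 0 of the 5 windows and in 1.24% of 32851 mouse promoters of that length. The looser TGANNTCA was in 3 of the 5, at -64 to -57 in Prm1, -60 to -53 in Prm3 and -94 to -87 in Tnp1, counted from the start, and in 7.14% of all promoters. The match in Prm1 depends on the start taken, since the shorter GENCODE transcript begins 63 bases before the RefSeq start, and counted from there the match runs from -1 to 7 and leaves the window. The motif TATAA was also in 3 of the 5, those of Prm1, where the same holds, Prm2 and Tnp2, and in 11.9% of all promoters. By the RefSeq starts, the 3 promoters with TGANNTCA and the 3 with TATAA shared Prm1 alone. A match describes the letters of the window and does not show that a factor binds there.

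The WT library held 82973909 UMIs, the KO library 91388296 and the KI library 73150373, where 1 UMI (unique molecular identifier) counts 1 captured molecule. After cell calling and filters 5856, 4065 and 1568 cells were kept. Ddx25, the targeted gene, stood at 110.5 CPM (the gene's UMIs scaled to the UMI total of the cells summed) in RS-like cells of WT and 131.8 in KI, and at 0 UMIs in KO, which put WT at least 199.6-fold above the level that 3 UMIs would give, so the KO label held. Cells were grouped into 16 clusters with the members and their pathway genes left out, and clusters were named after markers. Clusters 1 and 9 were RS-like, with all 11 RS markers above the other cells, and clusters 8, 5 and 4 were ES-like, with 8 or 9 of 9 ES markers above. These marker counts pool the libraries. With clusters made without integration of the libraries, the ES-like clusters held 1116, 615 and 616 WT cells. The same clusters held 0, 1 and 1 KO cells and 2, 4 and 0 KI cells. The ES-like name of KO and KI cells thus depended on integration, and the study reported no distinct ES in either. A cluster did not hold the same stages in each library. The median late index, the UMIs of the ES markers as a part of those of the RS and ES markers, was 0.890 in WT cluster 8 but 0.651 in KO and 0.665 in KI, and of the cells in cluster 4, 1128 were WT, 5 KO and 1 KI. Of barcodes kept in more than 1 library, WT and KI shared 36, in 33 of which the smaller library held under 1% of the UMIs of the larger, WT and KO shared 16, and KO and KI shared 8. Without them the ratios of the members' share given below moved by little, to -2.50 in RS-like cells of KI and to -0.87 and -0.84 over bins of the late index. All intervals given are 95% intervals, exact Poisson or Clopper-Pearson, and cover counting error only.

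Transcripts of Prm1 were found in most droplets of every cell type looked at, so their presence alone did not mark a spermatid. A UMI of Prm1 was present in 99.7% of WT SP-like cells at a median depth of 29924 UMIs, in 98.9% of WT Sertoli-like cells at 1352 UMIs and in 99.7% of WT RS-like cells at 1988 UMIs. Prm3 was less widespread, with a UMI in 51.5% of WT, 42.2% of KO and 41.7% of KI SP-like cells. The number of member UMIs per droplet hardly followed the depth of the cell. Over the 12 clusters other than 9, 8, 5 and 4, the median droplet of WT held 10 to 21 UMIs of the 5 members, that of KO 5 to 10 and that of KI 4 to 10. WT Sertoli-like droplets held 19 such UMIs and WT SP-like droplets held 20, although their depths were far apart. Empty barcodes, those ranked 45000 to 90000 by UMIs, gave the members 5.09% of their UMIs in WT, and 1.87% and 2.52% in KO and KI. Free member RNA was thus present in all 3 libraries and was highest in WT.

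RS-like cluster 1, cells of few UMIs that carried the acrosomal markers, stood at this background level by the sum of the members, but not for each of them. Its median droplet held 19 UMIs of the members in WT and 8 in both KO and KI, within the range of the cell types above. Prm3 alone was present in 89.1% of WT cluster 1 cells, where the median cell held 2 of its UMIs, against 61.8% of Sertoli-like cells and a median of 1. By the limit set on SP-like cells below, 21.2% of KI, 6.46% of KO and 0.919% of WT cells of cluster 1 were past it for Prm3. The limits were far apart, since a KI cell had to exceed 2 UMIs of Prm3, a KO cell 3 and a WT cell 19.77. These percentages therefore do not rank the libraries. For each of the other members, 4.15 to 7.88% of KI cells and 2.06 to 3.82% of KO cells were past the limit. In WT the order was not the same, with Tnp1 past it in 9 of 653 cells and Prm3 in 6. Of 8 WT cells of cluster 1 with exactly 1 member past it, 4 had Tnp1 and 3 had Prm3. In cluster 9 the median was 166 UMIs in WT and 74 in KO, with KI between them, and in cluster 8 it was 2608, 1047 and 881. As shares of a cell's UMIs, however, cluster 1 did not look empty, with a median of 1.53% in WT. Results for RS-like cells are therefore also given for cluster 9 alone.

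Prm3 was the member most often above the background in cluster 9, by the limit used here. In cluster 9, a cell was called past the limit for a gene when its UMIs exceeded a high percentile of the gene's UMIs in SP-like cells of the same library, which all but 1 in 40 of those cells stayed under. This limit differs between libraries, so members are compared within a library only. In WT, Prm3 was past the limit in 85.9% of 355 cells (81.9 to 89.4), Tnp1 in 37.2% (32.1 to 42.4), Tnp2 in 28.2% (23.6 to 33.2), Prm1 in 21.1% (17.0 to 25.8) and Prm2 in 9.30% (6.49 to 12.8). In KO, 193 of 195 cells were past it for Prm3, and the shares were 86.2% for Tnp1, 51.8% for Tnp2, 39.0% for Prm1 and 35.9% for Prm2. In KI all 91 cells were past it for Prm3, and the shares of the others were 93.4%, 53.9%, 36.3% and 33.0% in the same order. The order of the members was thus alike in the 3 libraries, but the intervals of some neighbours overlapped. The intervals of Tnp2 overlapped those of Prm1 in each library, those of Tnp1 and Tnp2 overlapped in WT, those of Prm1 and Prm2 in KO and KI, and those of Prm3 and Tnp1 in KI.

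**Figure D1:**
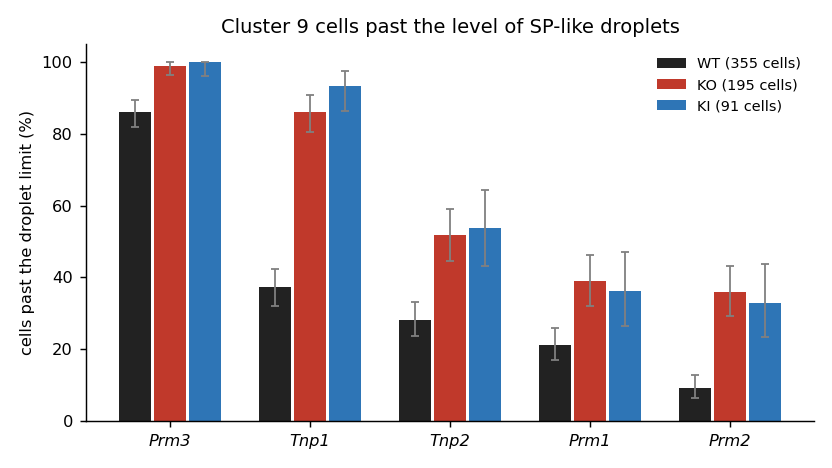
Percent of cluster 9 cells past the background limit, on the y axis, for each of the 5 genes in WT, KO and KI, with exact 95% intervals as error bars. Bars are to be compared between genes within a library: Prm3 stood highest in all 3, at 85.9% in WT, in 193 of 195 cells of KO and in 91 of 91 of KI, followed by Tnp1, Tnp2, Prm1 and Prm2.

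The combinations within single cells gave the same order. In WT cluster 9, 170 cells had exactly 1 member past the limit, and in all 170 it was Prm3, as it was in 24 of 24 such cells of KO and 5 of 5 of KI. Of cells with exactly 2, Prm3 and Tnp1 were the usual pair, and Tnp1 was among them in 33 of 35 WT cells, 63 of 64 KO cells and 37 of 38 KI cells. Of cells with exactly 3, Tnp2 was among them in 27 of 29, 24 of 29 and 13 of 13. No single cell of cluster 9 held Prm1 or Prm2 past the limit without Prm3. The number of cells with exactly 1 member past depended on the limit. At the 90th percentile these were 11 WT, 10 KO and 0 KI cells, Prm3 in 10 of WT and 10 of KO. At the 99th there were 180 in WT, Prm3 in 177. Prm3 and Tnp1 were nearly level at the 90th, in 353 and 343 of 355 WT cells and in 91 each of 91 KI cells. In KO they were past it in 193 and 181 of 195 cells. Prm1 was past the 90th in 64.5% of WT cells.

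The order Prm3, Tnp1, Tnp2 and then either protamine was kept in cluster 9 by 98.6% of WT cells, 96.9% of KO cells and 98.9% of KI cells. Cells with 0 or 5 members past the limit cannot break this order and were counted as keeping it. They numbered 49 and 30 of 355 cells in WT, 2 and 65 of 195 in KO, and 0 and 28 of 91 in KI. With limits at the 90th or 99th percentile, tried after the data were seen, it was kept in 93.3 to 98.9% of cells. The order of Prm1 and Prm2 depended on the limit. With limits per droplet, 43 WT cells of cluster 9 were past it for Prm1 only and 1 for Prm2 only, but the WT limit for Prm2 stood at 84.3% of the cluster 8 median and that for Prm1 at 26.8%. With limits taken from the share in empty barcodes, after thinning each cell to 2000 UMIs, 0 cells of the cluster were past it for Prm1 only and 17 for Prm2 only. Tnp1 and Tnp2 depended on it too, with 32 cells for Tnp1 only and 0 for Tnp2 only per droplet, and 5 and 12 with the shares.

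Ratios within a cell, which use no background limit, differed between clusters 9 and 8 for Prm3 and Tnp1. They were taken over cells with at least 20 UMIs of the genes in the ratio. For Tnp1 and Tnp2 in cluster 9 these were 304 of 355 WT, 131 of 195 KO and 63 of 91 KI cells. A ratio between genes is one of captured UMIs, not corrected for length or capture, and is compared between cells only. Prm3 made up a median of 28.1% of a cell's member UMIs in WT cluster 9, with KO at 35.5% and KI at 43.8%, and 1.86%, 3.30% and 3.16% in cluster 8. Tnp1 made up a median of 56.8% of the transition protein UMIs in WT cluster 9, 62.5% in KO and 68.1% in KI, and 41.7%, 38.3% and 39.5% in cluster 8. In each library Prm3 and Tnp1 thus took a larger part in the earlier cluster. A high Tnp1 part was not particular to early cells in WT, where its median was 48.0% in cluster 5 and 34.6% in cluster 4. Pooled in the WT bins of the late index described below, it was 53.4% in bin 2, 41.7% in bin 4 and 53.8% in bin 8. The transition proteins together made up a median of 36.4% of member UMIs in WT cluster 9 and 34.5% in cluster 8, with KO at 41.7% and 36.4% and KI at 40.2% and 36.8%.

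Along the late index of WT spermatids, the members rose and fell in turn. The 3042 WT cells with at least 20 marker UMIs were split into 10 bins at the deciles of the index. Bins 1 to 8 held 297 to 310 cells each, but the index reaches its upper end of 1 in many cells, which left 113 cells in bin 9 and 496 in bin 10. Of the 305 cells in bin 1, 300 were of cluster 1, with 1643 UMIs at the median against 11771 in bin 2, and by the sum of the members they lay at the background level. Prm3 stood at 31.2% of its highest bin there, and Prm1, Prm2, Tnp1 and Tnp2 at 1.69 to 6.00%. In bin 2, where 256 of 304 cells were of cluster 9, Prm3 stood at 50.2% of its highest bin, Tnp1 at 6.88%, Tnp2 at 4.47%, Prm1 at 2.77% and Prm2 at 1.59%. Tnp1 and Tnp2 reached 50% of their highest value in bin 3, Prm1 in bin 4 and Prm2 in bin 5.

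The peaks followed another order than the onsets. By pooled UMIs, Tnp2 was highest in bin 4, at 5.58% of all UMIs, and Tnp1 in bin 5, at 4.15%. Prm1 was highest in bin 6, at 13.0%. Prm2 came last, in bin 9 at 16.4%, together with Prm3 at 0.546%. In bin 10 the pooled transition proteins stood at 31.7% (Tnp1) and 21.4% (Tnp2) of their highest values, Prm1 at 70.5%, Prm3 at 92.8% and Prm2 at 99.1%. Pooled shares weight cells by their UMIs, and for the transition proteins they lay far above the median cell late in the index. The median of Tnp1 was 4.49% of a cell's UMIs in bin 5, 0.994% in bin 6 and 0.116% in bin 10. The median of Tnp2 was 5.77% in bin 4, 1.23% in bin 6 and 0.234% in bin 10. Of the 496 cells in bin 10, 397 were of cluster 4, where Tnp1 lay at the background level by UMIs and Tnp2 near it, as given below. Prm1 had medians of 13.4% in bin 6 and 3.35% in bin 10, and Prm2 had a median of 17.7% in bin 10. As shares of the UMIs of a cell, the transition proteins thus passed their peak before the protamines did, and Prm2 kept its share longest.

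**Figure D2:**
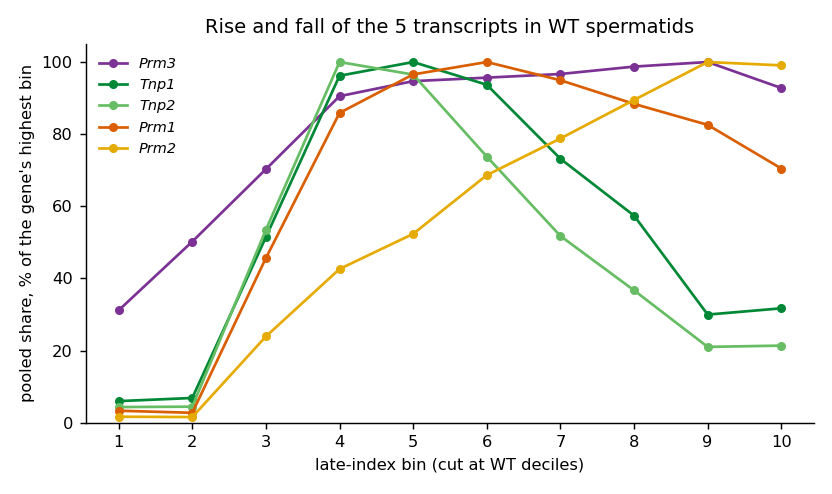
Share of each gene in the pooled UMIs of WT spermatids in 10 bins of the late index, as percent of that gene's highest bin. Bin 1, mostly cells of cluster 1, lies at the background level by the sum of the members; Prm3 stands at 31.2% there and at 50.2% in bin 2, Tnp2 and Tnp1 peak in bins 4 and 5 and end at 21.4% and 31.7%, and Prm2 peaks in bin 9.

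Over all spermatids thinned to 2000 UMIs, the members passed the share in empty barcodes in unequal numbers of cells, with the highest share of the 3 libraries as the limit and 770 WT, 630 KO and 156 KI cells left out as too shallow. In WT, Prm2 was past it in 84.4% of 2605 cells (73.5% unthinned), Prm3 in 80.2% (72.8%), Prm1 in 69.2% (56.6%), Tnp2 in 52.9% (43.4%) and Tnp1 in 50.4% (41.8%). In KO, Tnp2 led with 45.5% of 686 cells (29.0% unthinned), followed by Prm2 with 43.4% (28.4%), Prm3 with 39.2% (31.5%), Tnp1 with 35.0% (21.1%) and Prm1 with 29.2% (15.9%). In KI, Tnp2 and Prm2 stood at 36.7% and 36.4% of 330 cells (29.0% and 28.0% unthinned), Tnp1 at 29.7% (21.8%), Prm3 at 28.5% (25.9%) and Prm1 at 21.8% (16.5%). WT spermatids were thus mostly past the limit for the protamines, while in KO and KI fewer than 50% of cells were past it for any member. The limit was the WT share for every member. For Prm1 it was 1.95%, where empty barcodes gave 0.604% in KO and 0.822% in KI. KO and KI cells were thus held to a limit above the background of their own library, and the libraries are not compared at a like limit.

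The distribution over cells differed from the pooled shares where a cluster held cells of more than 1 kind. In WT cluster 9, Prm1 had a median share of 0.202% and a 10th to 90th percentile range of 0.0538 to 3.62%, and Prm2 a median of 0.128% with a range of 0.0299 to 2.61%. Prm3 in the same cells was far more even, with a median of 0.302% and a range of 0.170 to 0.397%. Early in WT, Prm3 was therefore near a common level in most cells while the protamines ran from the background to several percent. In WT cluster 8 the spread had narrowed, with Prm1 at a median of 9.60% (4.82 to 11.6%), Prm2 at 5.95% (3.31 to 7.11%), Tnp1 at 3.42% (1.94 to 4.34%) and Tnp2 at 4.87% (2.49 to 6.00%). In WT cluster 5 Prm1 reached its highest median share, 15.1%, and Prm2 stood at 9.22%, Tnp1 at 4.84%, Tnp2 at 5.39% and Prm3 at 0.555%.

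**Figure D3:**
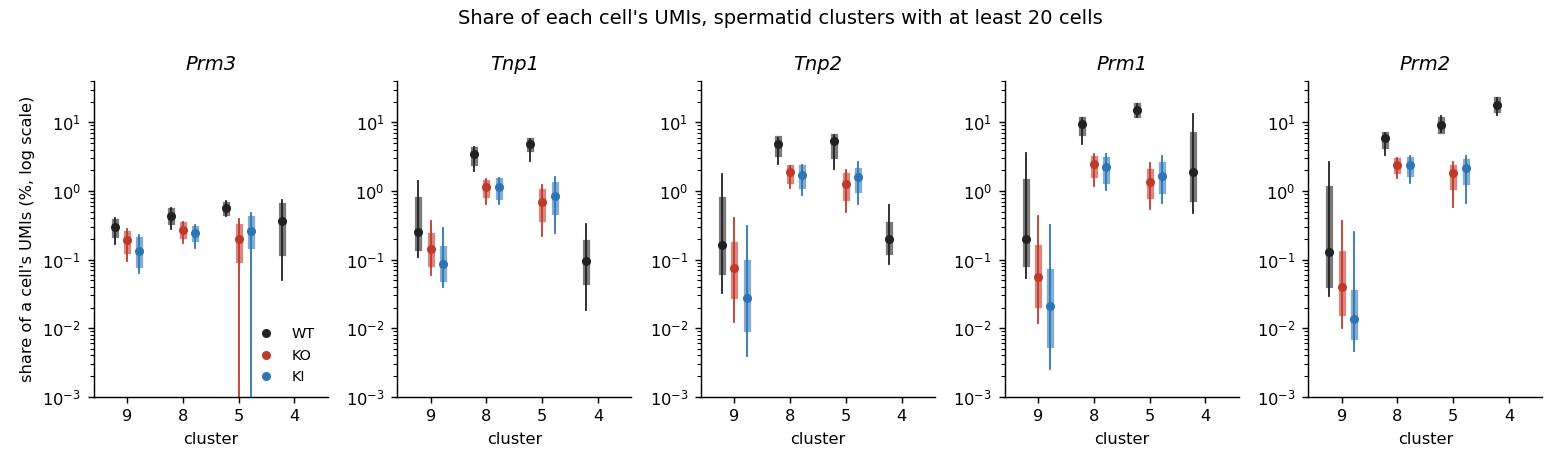
Share of each gene in a cell's UMIs, in percent on a log axis, by spermatid cluster and library. Points are medians over cells, thick bars quartiles and thin bars the 10th to 90th percentiles, with a 10th percentile of 0 drawn at 0.001; in cluster 9 of WT, Prm3 spans 0.170 to 0.397% and Prm1 0.0538 to 3.62%.

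Cluster 4, the ES-like cells of few UMIs and few genes, held nearly WT cells alone and a different mix of members. Prm2 had a median share of 18.2% there, against 9.22% in cluster 5. Prm1 had a median of 1.87%, against 15.1%, and a wide 10th to 90th percentile range of 0.478 to 13.0%. Tnp1 stood at 0.0961% and Tnp2 at 0.199%, against 4.84% and 5.39%. In UMIs, the median cluster 4 cell of WT held 3 of Tnp1 and 6 of Tnp2. WT SP-like and Sertoli-like droplets held a median of 3 of each, so Tnp1 lay at the background level and Tnp2 near it. Prm2 was the main member in these cells, and the transition proteins together were at a median of 1.36% of member UMIs.

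The ratio of the protamines was held closely in WT cells until cluster 4. Prm1 made up a median of 61.9% of the UMIs of Prm1 and Prm2 in WT cluster 8, with a 10th to 90th percentile range of 57.9 to 64.6%, and 62.2% in cluster 5, with a range of 58.0 to 64.5%. In cluster 4 the median was 10.3% and the range 2.52 to 46.3%, and 82 of 1105 cells were above 50%. Split by total UMIs into 4 sets of 282, the cluster 4 cells with the fewest UMIs had a median of 4.14%, the next set 6.71% and the deepest 33.7%. The part of Prm1 was thus lowest in the cells with least RNA, and the median share of Prm2 changed far less between the first and the last set, 18.3% and 16.6%. In the first set, of 779 to 2200 UMIs, Prm1 had a median share of 0.671%. WT Sertoli-like cells, at a median of 1352 UMIs, had 0.575%, so Prm1 was near the background there. The pooled part in all WT ES-like cells, 51.8%, is a mean over the unlike clusters 8, 5 and 4.

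**Figure D4:**
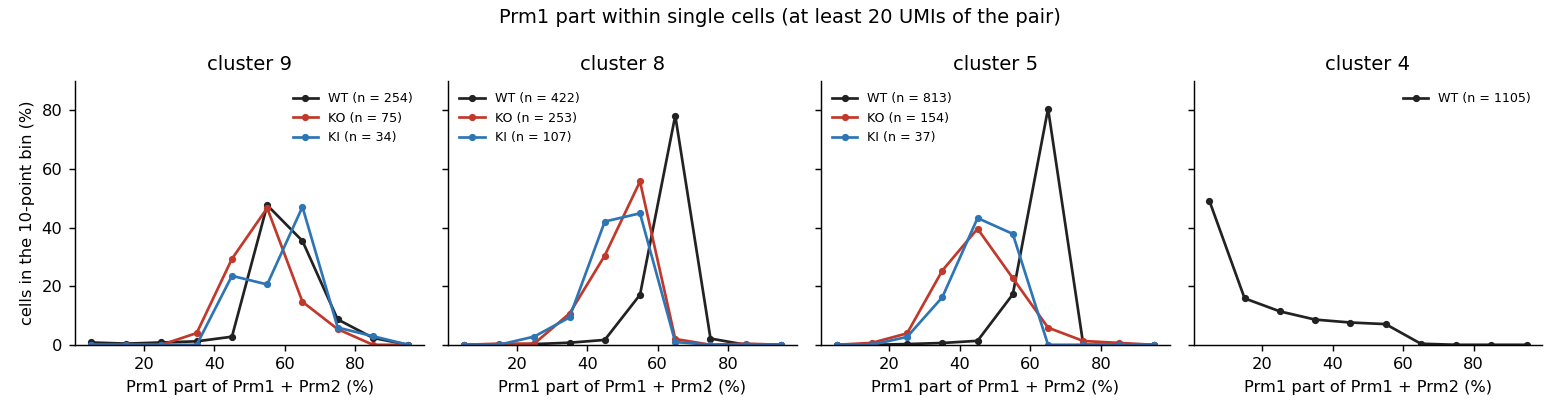
Distribution over cells of the Prm1 part of Prm1 and Prm2 UMIs, in percent, by spermatid cluster and library, for cells with at least 20 such UMIs. WT clusters 8 and 5 form a narrow peak near 62%, WT cluster 4 spreads from 2.52 to 46.3% (10th to 90th percentile), and KO and KI cluster 8 centre at 51.0% and 49.8%.

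In cluster 8 of KO and KI the protamine ratio was lower than in WT. The Prm1 part in cluster 8 had a median of 51.0% in KO (10th to 90th percentile 39.4 to 55.9%) and 49.8% in KI (38.6 to 55.0%), so that the 90th percentile of each lay below the 10th percentile of WT. In cluster 9 the order of KI and WT depended on the measure, since the median part there was 59.7% over 254 WT cells, 52.2% over 75 KO cells and 60.6% over 34 KI cells, but the part of the pooled UMIs was 57.8% for WT, 51.0% for KO and 51.9% for KI. Over the first 3 bins of the late index, the pooled part ran from 58.0 to 61.1% in WT, from 50.9 to 52.2% in KO and from 49.9 to 51.0% in KI. The third bin was not one stage, with a median index of 0.790 for WT, 0.662 for KO and 0.672 for KI. In bins of the index 0.05 wide between 0.40 and 0.75, chosen after the data were seen and without cluster 1, the part was lower than WT in 7 of 7 bins for both KO and KI. Empty barcodes stood at 60.9% in WT and at 54.8% and 54.9% in KO and KI, so the free RNA of each library moved the same way. In cluster 8, the log2 ratios of Prm1 and Prm2 against WT were -1.814 and -1.241 in KO, and -1.836 and -1.204 in KI. With free RNA subtracted they were -1.814 and -1.239, and -1.858 and -1.225. The part of free RNA in the result was not tested beyond this.

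All 5 members were lower in RS-like cells of KO and KI, but the size, and without integration the sign, depended on which cells were compared. Together they took 3.39% of the UMIs of WT RS-like cells, 0.969% of KO and 0.608% of KI, a log2 ratio of -1.80 in KO (-1.82 to -1.79) and -2.48 in KI (-2.50 to -2.46). Cluster 9 alone gave -1.73 and -2.51. With clusters made without integration of the libraries, the ratios turned to 0.32 in KO and 0.092 in KI. In that setting 3 of the 4 RS-like clusters were mostly of some libraries, with 35 WT, 403 KO and 136 KI cells in the first of these, 433, 5 and 1 in the next, and 0, 216 and 95 in the last. The sign of the RS-like difference thus depended on the clusters. The RS-like cells also differed in late index, with a median of 0.376 in WT, 0.231 in KO and 0.161 in KI. In cluster 9 the medians were 0.525, 0.50 and 0.478. Stage and genotype cannot be told apart in these ratios.

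By role, Tnp1 stood in RS-like cells at 5476 CPM in WT, with KO at 1940 and KI at 1302, log2 ratios of -1.50 and -2.07. Tnp2 stood at 6175, 1842 and 1065 CPM, ratios of -1.74 and -2.53. The transition protein messages were 2.82- and 3.35-fold lower in KO. The RS-like cells of the 3 libraries differed in late index, as given above. Stage and genotype therefore cannot be told apart in the values of this paragraph. Prm1 stood at 11214, 2178 and 1186 CPM, ratios of -2.36 and -3.24. Prm2 stood at 8129, 2059 and 1104 CPM, ratios of -1.98 and -2.88. Prm3 differed least, with 2853, 1673 and 1418 CPM and ratios of -0.77 and -1.01. At a 2-fold limit, 4 of 5 members were lower in KO, where 2.33% of the 3647 genes with at least 50 CPM were that much lower and 3.15% higher, and 5 of 5 were lower in KI, where 3.73% were lower and 4.83% higher. In cluster 9 alone, 4 of 5 were that much lower in KO, where 3.39% of 3421 genes were lower and 3.19% higher, and 4 of 5 in KI, where 4.53% were lower and 6.08% higher. Prm3 stood at -0.96 in KI there. The median gene stood at 0.15 in KO and 0.18 in KI on the log2 scale, and with TMM size factors at -0.16 and -0.10, a shift that moved each member down by the same amount. With TMM, Prm3 stood at -1.08 in KO and 5 of 5 members were 2-fold lower, where 5.75% of 3651 genes were lower and 1.21% higher, and in KI 5 of 5 were, where 7.50% were lower and 1.48% higher.

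In ES-like cluster 8, each member was lower in KO and KI, although the median droplet of each library held far more member UMIs than the background. By the share in empty barcodes, with the highest library as the limit, 67.5% of KO cells of the cluster were past it for Prm1. Prm1 had a median of 9.60% in WT, 2.47% in KO and 2.20% in KI. Prm2 had medians of 5.95%, 2.43% and 2.38%, and Prm3 of 0.438%, 0.273% and 0.246%. Tnp1 had medians of 3.42%, 1.14% and 1.14%, and Tnp2 of 4.87%, 1.86% and 1.72%. The 10th percentile of WT, 4.82% for Prm1 and 2.49% for Tnp2, lay above the 90th percentile of KO for both, 3.42% and 2.31%. The medians of KO and KI differed by less than the spread over cells of either for all 5. WT cells of this cluster were later by the index, as given above, and the stage and the genotype cannot be told apart within it. The ES-like name of its KO and KI cells depended on integration, as also given above.

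At a matched late index the difference was uneven. An equal index need not be an equal stage. The study reported Acrv1, Eqtn and Tssk1, RS markers used in the index, as lower in RS of KO and KI. Of the bins cut at WT deciles, 3 held at least 20 cells of each library. The members' share in KO against WT was -1.32, -0.07 and -0.89 there on the log2 scale, with a median of -0.89. For KI against WT it was -1.47, -0.74 and -0.83, with a median of -0.83. Both medians are the values of bin 3, whose cells were not at a like index. WT cells of that bin had a median index of 0.790, against 0.662 for KO and 0.672 for KI. Stage and genotype cannot be told apart within it. Bin 1 compares cells that lie at the background level by the sum of the members, as 300 of 305 WT, 321 of 332 KO and 207 of 210 KI cells there were of cluster 1. Without cluster 1, a choice made after the data were seen, 2 bins were left, with a median of -0.43 in KO and -0.57 in KI. Prm2 and Tnp2 were higher in KO in bin 2, by 0.28 and 0.10, and lower in the others. In the narrower bins, 0.05 wide from 0.40 to 0.75, the members together were at -0.78 and -0.59 in KO in the first 2 bins, at 0.16, 0.15 and 0.07 in the next 3 and at -0.45 and -0.46 in the last 2. KI gave -1.19, -1.08, -0.08, 0.01, -0.04, -0.36 and -0.47. By pooled UMIs the members were thus lower in the lowest and highest of these index bins, and near WT between an index of 0.50 and 0.65. The median cell there went both ways, since from 0.55 to 0.60 it held 5.37% in KO and 4.81% in KI against 2.28% in WT, and from 0.50 to 0.55 it held 0.532% in KI against 0.845% in WT.

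**Figure D5:**
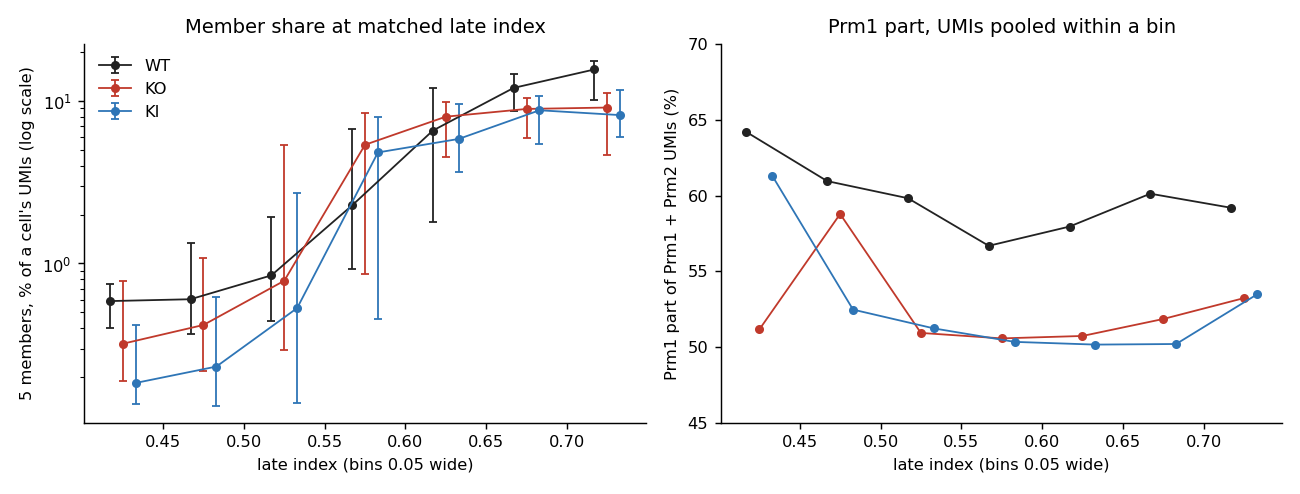
By late index in bins 0.05 wide, without cluster 1, for WT, KO and KI: left, the share of the 5 genes in a cell's UMIs in percent on a log axis, with points as medians over cells and bars from the 10th to the 90th percentile; right, the Prm1 part of the pooled Prm1 and Prm2 UMIs in percent. In the first bin the median share is 0.587% in WT, 0.321% in KO and 0.184% in KI, in the last 15.6%, 9.09% and 8.16%, and the Prm1 part of KO and KI lies below WT in all 7 bins.

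Prm3, the member followed singly in the narrow bins, was lower than WT in 7 of 7 narrow bins in both, 1.18- to 1.61-fold in KO and 1.41- to 1.91-fold in KI. From 0.60 to 0.65, for example, its pooled share was 0.358% in WT, against 0.264% and 0.217% in KO and KI, while the 5 members together took 7.18%, 7.55% and 7.01%. Cells of these bins still differed in spread, since the 10th percentile of the members' share there was 1.81% in WT and 4.54% in KO, and 5.88% of WT cells but 90.7% of KO cells belonged to clusters 8 or 5.

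The high protamine shares of late WT spermatids were nearly missing from KO and KI. Cells with over 10% of their UMIs in the members numbered 2366 in WT (40.4% of kept cells), 43 in KO (1.06%) and 23 in KI (1.47%). Cells with over 30% numbered 877 in WT and 0 in both others, and the highest single cell held 51.9% in WT, 15.8% in KO and 25.9% in KI. Few cells of KO and KI were at those stages, since 2 of 821 KO cells and 7 of 421 KI cells lay past the third bin, against 2129 of 3042 in WT. Fewer late cells and less of these messages per late cell cannot be told apart here.

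Other genes of the pathway were compared in RS-like cells. Of 9 genes of spermatid transcription, 5 had at least 50 CPM, and 0 differed by 2-fold in KO or KI. Since 2.33% of all genes compared were that much lower and 3.15% higher in KO, and 3.73% and 4.83% in KI, a count of 0 or 1 in so short a list is near that share, and nothing is read from it here or in the lists that follow. Crem, the activator that drives many spermatid genes, stood at 492.5 CPM in WT, with KO at 425.9 and KI at 482.6. Its coactivator Fhl5 stood at 694.0, 534.3 and 495.1 CPM, the TBP-like factor Tbpl1 at 256.4, 330.0 and 375.5, and Gtf2a1l, a germ cell form of TFIIA, at 157.1, 182.1 and 211.2.

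Of 10 genes of message storage and translation, 8 were high enough to compare, 1 was lower in KO, Ddx25 itself, and 0 differed in KI. Pabpc1, the poly(A)-binding protein, stood at 1466 CPM in WT, with KO at 1565 and KI at 1865. Ybx3 and Ybx2, which bind and store protamine messages, stood at 1344 CPM (Ybx3) and 417.9 CPM (Ybx2) in WT, with KO at 1751 and 546.5 and KI at 1928 and 565.5, all under 2-fold apart. Paip2, an inhibitor of Pabpc1, stood at 776.2, 711.8 and 710.6 CPM.

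Of 14 genes of the histone exchange, 11 were high enough, and 1 was lower by 2-fold in both KO and KI. This was Tssk6, a testis-specific serine kinase, at 322.9 CPM in WT and at 130.6 and 80.4 in KO and KI, log2 ratios of -1.30 and -1.99. Of the linker histone-like genes, H1fnt stood at 651.7, 555.4 and 491.4 CPM, and Hils1 at log2 ratios of -0.37 in KO and -0.39 in KI. Phf7, a histone reader, stood at 1130, 1252 and 1519 CPM, and the chromodomain gene Cdyl at 586.9, 570.9 and 553.1. None of these 4 passed 2-fold.

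Genes other than the members with the course most like each of them were sought over 16 units, each a late-index bin of 1 library, by Pearson's r of log2(CPM + 1) among 2971 genes. The units share libraries and cells next to each other in stage, so r is a description. Prm1 was most like Klk1b8 (0.996), 1700042G07Rik (0.993) and Cyp2a12 (0.993). Prm2 was most like 1700012A03Rik (0.999), 1700027A15Rik (0.998) and 1700015G11Rik (0.997). Prm3 was most like 1700024P04Rik (0.994), 4930503B20Rik (0.980) and Cdv3 (0.978). Tnp1 was most like Stk35 (0.986), AL513352.1 (0.986) and Cstl1 (0.982), and Tnp2 was most like AL513352.1 (0.995), Cstl1 (0.991) and Tex37 (0.988). Between members, r was 0.988 for Tnp1 and Tnp2, 0.988 for Prm1 and Prm2, and lowest for Prm3 and Tnp2, at 0.860. AL513352.1 and Cstl1 were shared by both transition proteins, and no gene was shared by 2 protamines.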

How the data were processed

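For each library the authors deposited a matrix of UMI counts, genes by barcodes, neither normalized nor filtered. The labels name mm10 and Cell Ranger 2.1.1, a 3′ v2 kit and an Illumina HiSeq, whereas the file headers name a later Cell Ranger and the study's methods another sequencer. Cells were called with 3000 expected cells, then by comparison with barcodes ranked 45000 to 90000 (10000 simulated barcodes, FDR 0.01), and kept with over 500 genes and under 10% mitochondrial UMIs. Libraries were integrated with Seurat 5.3.0 and sctransform 0.4.2 in R 4.3.3, without the members and pathway genes. Cells were clustered on a graph of shared neighbours with scikit-learn 1.9.0 and leidenalg 0.10.2 (20 neighbours, resolution 0.30). The rule that names clusters from markers was chosen after the clusters were seen. Doublets were kept. Scrublet, run in scanpy 1.11.5, marked 167 WT, 5 KO and 13 KI cells and hardly worked in KO.

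Counts were summed per class, cluster or late-index bin and scaled to percent or CPM, with 1 CPM added for log2 ratios over genes. With 1 library per genotype no test was made. TMM factors came from edgeR 4.0.16. The late index used cells with at least 20 marker UMIs, and within-cell ratios at least 20 UMIs of the genes in the ratio. The summing and the intervals were tested on simulated data. Named genes are the members, the 3 genes most like each, and of each pathway list those past 2-fold in both KO and KI and up to 4 of highest WT CPM. The members and lists were chosen with earlier results of these data known. Alternatives were other cell sets, clusters, scalings, limits and minimums.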

Additional observations from a re-analysis of the deposited data

How the results depend on the processing

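The values given first below for KO and KI are log2 ratios of the members' share against WT, first in RS-like cells and then at matched late index. Cells of a matched bin could still differ in index between libraries, as given above for bin 3. Without integration, the RS-like ratios reversed to 0.32 and 0.092, and those at matched index were -0.56 and -1.11. Calling by UMI totals alone gave -1.73 and -2.57, then -0.34 and -0.26. Gating called cells by marker UMIs gave -0.83 and -1.33, then -0.82 and -1.11, and gating every barcode of at least 500 UMIs gave -0.65 and -1.02, then -0.72 and -0.70. Removing Scrublet's cells gave -1.77 and -2.45, then -0.88 and -0.91. Scaling to the UMIs of all other genes gave -1.84 and -2.52, then -1.01 and -0.94. TMM gave -2.11 and -2.76 in RS-like cells. Subtracting free RNA gave -1.90 and -2.53, then -0.88 and -0.84. At least 50 marker UMIs gave -0.42 and -0.64 at matched index. Of the alternatives added after the data were seen, leaving out barcodes kept in 2 libraries gave -2.50 in RS-like cells of KI, then -0.87 and -0.84, leaving out cluster 1 gave -1.73 and -2.51, then -0.43 and -0.57, and bins 0.05 wide gave -0.46 and -0.36. At matched index, the median over bins kept its sign in all 11 alternatives in KO and KI, but single bins turned positive, up to 0.26 in KO by totals and by gating called cells, 0.13 in bins 0.05 wide that keep cluster 1 (0.16 in those without it, where KI reached 0.01) and 0.01 with free RNA subtracted, and up to 0.063 in KI by totals and 0.11 by that gate. The smallest median ratios were those of calling by totals.

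The Prm1 part in WT ES-like cells, 51.8%, became 59.5% with calling by totals, which keeps few cells of low UMIs, and 51.7%, 51.9%, 51.5% and 51.7% without integration, with the 2 gates and with free RNA subtracted. Cells past the limit for Prm1 only, 0.746% of those past it for 1 protamine only (3 against 399, of which 378 were in cluster 4), became 4.17% by totals, 2.89% thinned to 1000 UMIs and 51.7% with limits per droplet, a reversal. The same share for Tnp2 only, 91.0% (71 against 7, of which 45 and 0 were in cluster 4), became 80.7% by totals, 75.6% with every barcode gated, 70.3% thinned to 1000 UMIs, 81.4% without cluster 1 and 10.0% with limits per droplet, a reversal. Both shares therefore hold many cells past the peak of these genes and do not describe onset alone. The causes of these shifts were not tested.

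With TMM, 210 genes were lower and 44 higher by 2-fold in RS-like cells of KO, and 274 and 54 in KI, against 85 and 115, and 136 and 176. With genes from 10 CPM the counts were 268 and 728 in KO, and 448 and 766 in KI. No paired analysis was possible because each genotype had 1 library. The number of late cells limits KO and KI, where fewer than 20 cells fell in each bin past the third.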

Other observations

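Barcodes outside the kept cells held members too. In WT, 734 barcodes that were called but had at most 500 genes gave the members 6.78% of their UMIs, with a Prm1 part of Prm1 and Prm2 of 11.7%, and 124 of them held over 10% in the members. In KO and KI, 47 and 179 such barcodes gave 0.735% and 0.844%, and 0 held over 10%. The pooled Prm1 part of WT cluster 4 was 26.8%. Of barcodes not called but with at least 500 UMIs, there were 6252 in the WT library, 32515 in the KO library and 7921 in the KI library, and 366, 2 and 6 of them held over 10% in the members.

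The spread of the Prm1 part over WT cells of cluster 8 had an SD of 4.85 percentage points, where counting error alone would give 2.13, and in KO and KI the SD was 6.98 and 7.16 against 2.82 and 3.29. In WT cluster 4 it was 16.8 against 2.03.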
